A study of Arabidopsis thaliana with 12 samples.

Results

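PSBY (AT1G67740), PSBW (AT2G30570) and PSB27 (AT1G03600) are nuclear genes of Arabidopsis thaliana for small proteins of photosystem II. Each was measured by 1 probe, so 3 of the 3439 probes of the array are described here. They were taken as the probes that the platform's table assigns to 1 gene only and to one of these 3 loci. The table names a single gene for 692 probes, and 0 probes with several genes list any of the 3. Total RNA came from 6 samples of the pete2 mutant, which lacks 1 of the plastocyanin isoforms, and from 6 samples of wild type (WT), both of ecotype Columbia and both grown on soil. The labels name no allele, age, organ or light condition, and leave unstated whether the 6 samples of a group are separate plants. The p-values therefore cover the spread among these samples alone, and that spread may be technical.

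Photosystem II is the thylakoid complex that takes electrons from water. Electrons then pass through plastoquinone and the cytochrome complex to plastocyanin, the copper protein of the lumen that delivers them to photosystem I. The core of photosystem II is surrounded by small membrane-spanning subunits of a single helix and by soluble helpers that bind while the complex is built or repaired. PSBY encodes a precursor that is cut into small membrane proteins near cytochrome b559. PSBW encodes a small subunit at the edge of the core, where the antenna binds, and in Arabidopsis it stabilises the supercomplexes of photosystem II with its antenna. PSB27 encodes a lumenal protein that is not part of the mature complex and takes part in the repair of photodamaged photosystem II in Arabidopsis.

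In the pete2 samples the 2 subunit genes were brighter on average and the assembly factor was dimmer, and of the 3 genes only PSBY passed the test across the array after quantile normalization. PSBY rose by 0.91 ± 0.203 (SE) on the log2 scale, a 1.88-fold higher level, in a fit that takes the 12 samples as independent. It missed the threshold with median centring, 1 of the 4 scalings tried. It also missed it when consecutive samples, which lay close, were averaged in pairs (adjusted p = 0.286, limma), where 0.331% of all probes were called. PSBW was 2.17-fold higher in pete2 on the intensities as deposited and 1.53-fold higher after normalization, and its call depended on the scaling. PSB27 had a log2 difference of -0.62 and was not called under any of the 4 scalings. Ratios within a sample do not depend on a scale factor common to all its probes. PSBW over PSB27 was 3.83-fold higher in pete2 and PSBY over PSB27 was 3.01-fold higher, with overlap between the groups. Both passed the test on deposited intensities of all 12 samples. Neither passed on normalized intensities or with samples 5 and 6 left out.

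The samples differed across the whole array. Between 17.1% and 30.7% of probes were listed at 0 in pete2 samples and between 15.7% and 17.8% in WT samples, with the highest shares in pete2 samples 5 and 6 (30.7% and 28.6%). The 3 probes described here were above 0 in all 12 samples and below the ceiling of the table, which 2 to 7 probes reached per sample. PETE2 and PETE1, the plastocyanin genes, have no probe of their own in the table, so the genotype was not checked against the data. In whole-tissue RNA, fewer cells of a type and less RNA per cell cannot be told apart.

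**Figure D1:**
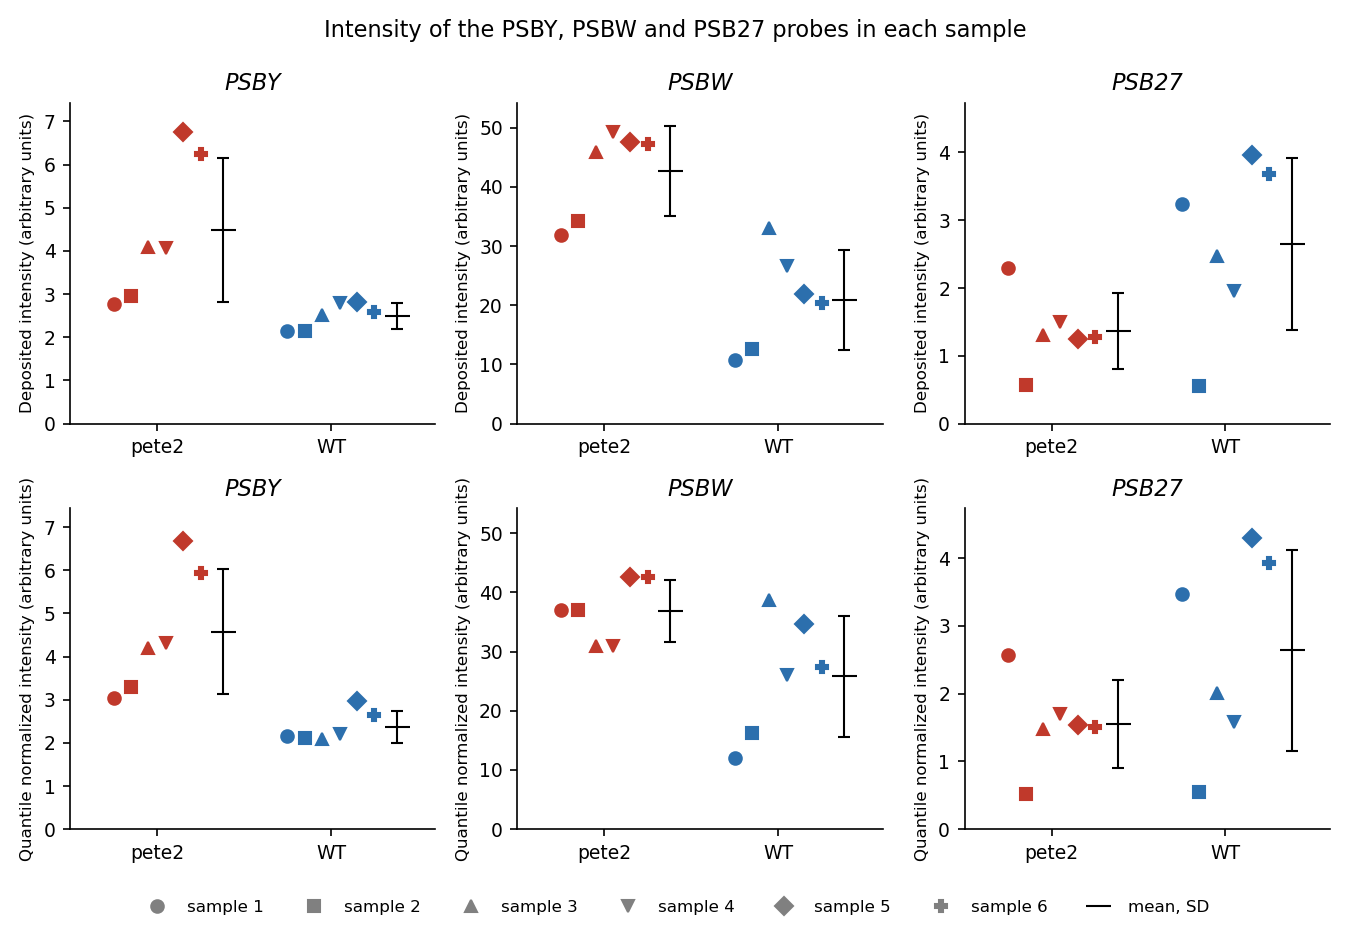
Intensity in arbitrary units of the PSBY, PSBW and PSB27 probes (columns) as deposited (upper row) and after quantile normalization (lower row), with 6 pete2 samples left of 6 WT samples. Symbols give the sample number, and the bar gives the mean and SD. Normalized PSBY was between 3.04 and 6.68 in pete2 and between 2.08 and 2.98 in WT, while the other genes overlapped between the groups, and PSB27 was lowest in sample 2 of both.

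PSBY had a deposited intensity between 2.76 and 6.76 in pete2, with a median of 4.07, against 2.13 to 2.82 in WT, with a median of 2.56. The 5 highest pete2 samples lay above all WT samples, and pete2 sample 1 (2.76) lay below WT samples 4 and 5 (2.79 and 2.82). After normalization the lowest pete2 value was 3.04 and the highest WT value was 2.98, so the groups no longer overlapped. Of all tested probes, 3.31% had every normalized pete2 value above every WT value. The normalized intensity of PSBY averaged 4.57 ± 1.45 in pete2 and 2.36 ± 0.369 in WT (SD, n = 6 each). The log2 difference had a 95% interval from 0.47 to 1.35 and an adjusted p of 0.0126 (limma, Benjamini-Hochberg over 3321 probes). In that fit 11.2% of probes were called, 4.91% as higher in pete2, and 1 of the 3 genes, PSBY, was among them. With median centring its log2 difference was larger, 1.47 ± 0.479 (SE), and missed the threshold (adjusted p = 0.0683, limma).

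Among the pete2 samples PSBY was not uniform. Its deposited intensity was 6.76 and 6.24 in pete2 samples 5 and 6, about 4.08 and 4.07 in samples 3 and 4, and 2.76 and 2.96 in samples 1 and 2. The coefficient of variation was 37.2% in pete2 and 12.1% in WT, and the difference in spread was not tested. Samples 1 and 2, 3 and 4, and 5 and 6 of a group lay close to each other. The larger PSBY value of such a pair was at most 1.08 times the smaller in pete2 and at most 1.11 times in WT. The labels do not say that consecutive numbers mark shared material. Taken pair by pair, deposited PSBY was 1.34-fold higher in pete2 in samples 1 and 2, 1.54-fold in samples 3 and 4 and 2.40-fold in samples 5 and 6. The share of probes at 0 in pete2 was also lowest in samples 1 and 2 (17.2% and 17.1%) and highest in samples 5 and 6, and its part in the size of the difference was not tested. PSBY kept its call when samples 5 and 6 were left out of both groups, with a log2 difference of 0.76 (adjusted p = 0.0113), and when they were left out of pete2 alone, with 0.62 (adjusted p = 0.0303).

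Fits that allowed for these pairs gave PSBY a larger p. With the pairs as a random block, where 5.06% of all probes were called, its adjusted p was 0.0272. With the pairs averaged, 3 against 3, it was 0.286, and 0.331% of all probes were called.

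PSBW, the subunit at the antenna side, was among the brightest probes of the array. Its deposited intensity was between 31.9 and 49.3 in pete2, with a median of 46.5, against 10.8 to 33.1 in WT, with a median of 21.1. WT sample 3 (33.1) lay above pete2 sample 1 (31.9), and the other 5 WT samples, at 26.7 or less, lay below all pete2 samples. The lowest WT values were 10.8 and 12.7 in samples 1 and 2, and the lowest pete2 values, 31.9 and 34.3, were also in samples 1 and 2. Same-numbered samples therefore differed by a factor of 2.96 and 2.70 there, against 1.39 in sample 3.

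For PSBW the outcome turned on how samples were scaled. On the intensities as deposited the log2 difference was 1.12 ± 0.275 (SE, 95% interval 0.52 to 1.71, adjusted p = 0.0181, limma). There 13.4% of all probes were called but only 1.81% as higher in pete2, since the median over all tested probes was -0.63, and 2 of the 3 genes, PSBY and PSBW, were among these. Relative to that median the difference of PSBW was 1.74 and that of PSBY 1.4. Most probes behind the median are far dimmer than PSBW and PSBY. The total intensity of a sample overlapped between the groups, at 2857 to 3180 in pete2 and 2795 to 3358 in WT. Whether the shift of the median holds for bright probes was not tested. With quantile normalization PSBW averaged 36.8 ± 5.21 in pete2 and 25.8 ± 10.3 in WT (SD, n = 6 each). The log2 difference was then 0.61 ± 0.278 (SE, 95% interval 0.01 to 1.21), with an adjusted p of 0.187. With cyclic loess it was 0.83 (adjusted p = 0.0523, with 5% of all probes called higher) and with median centring 1.82 (adjusted p = 0.0471, with 3.91% called higher). The sign was positive under all 4 scalings.

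Quantile normalization replaces an intensity by the mean intensity at its rank, and few ranks lie above PSBW. It was the 14th to the 19th brightest probe in pete2 samples and the 15th to the 41st in WT samples. Consecutive pete2 samples had the same rank and so the same normalized value, 37.0 in samples 1 and 2, 30.9 in samples 3 and 4 and 42.6 in samples 5 and 6, and the normalized SD of pete2 leaves out the spread within these pairs. In samples 3 and 4 normalization took deposited values of 45.9 and 49.3 to 30.9. The pairwise log2 difference there became -0.04, against 0.68 as deposited.

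**Figure D2:**
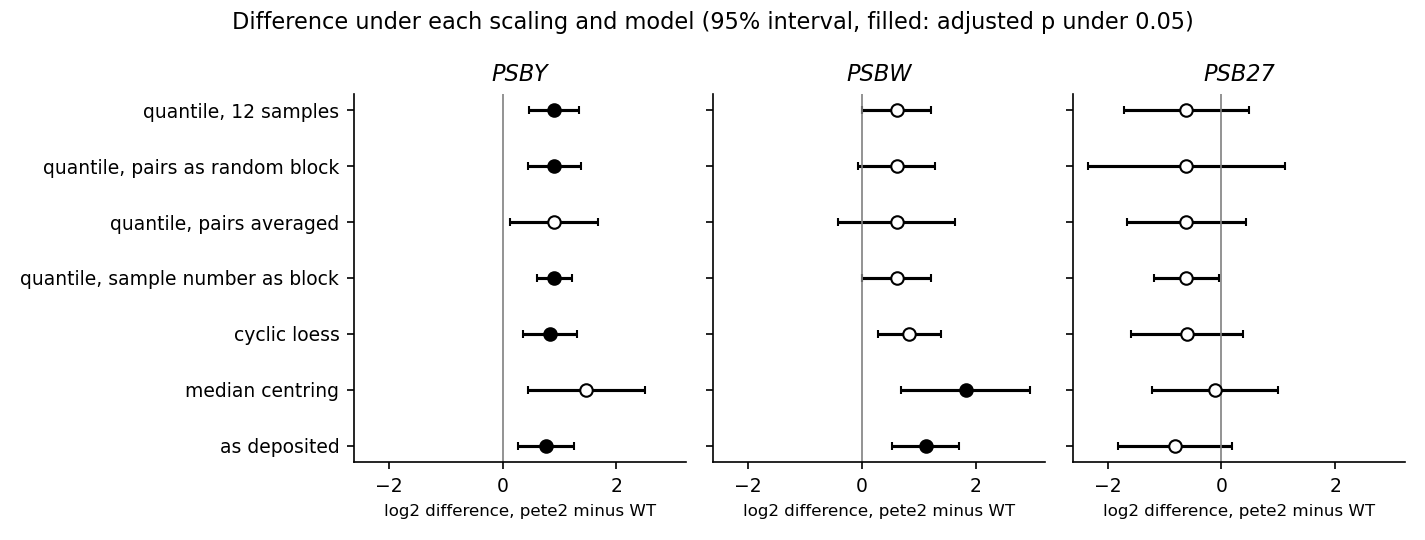
Log2 difference, pete2 minus WT, of PSBY, PSBW and PSB27 (columns) under 7 combinations of scaling and model (rows), with 95% intervals. Filled points had an adjusted p under 0.05. PSBY was filled in 5 of 7, PSBW with median centring and as deposited, and PSB27 in 0.

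PSB27, the assembly and repair factor, had a deposited intensity between 0.572 and 2.3 in pete2, with a median of 1.29, against 0.550 to 3.96 in WT, with a median of 2.86. Pete2 samples 3 to 6 lay between 1.25 and 1.5, below all WT samples except sample 2. Pete2 sample 1 (2.3) lay among the WT values. The normalized intensity averaged 1.55 ± 0.654 in pete2 and 2.64 ± 1.49 in WT (SD, n = 6 each), and the log2 difference of -0.62 ± 0.506 (SE) did not pass the test (adjusted p = 0.469, limma). Its 95% interval, from -1.71 to 0.48, includes falls larger than the rise of PSBY. On the intensities as deposited the log2 difference was -0.82, or -0.19 relative to the median of all tested probes, and with median centring it was -0.12 (adjusted p = 0.245 and 0.90).

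Sample 2 stood apart for PSB27 in both groups. Its deposited intensity was 0.572 in pete2 sample 2, against 2.3 in sample 1, and 0.550 in WT sample 2, against 3.23 in sample 1. These are 4.02-fold and 5.88-fold gaps between samples that otherwise lay close, with PSBY differing by 1.07-fold and 1.01-fold and PSBW by 1.07-fold and 1.18-fold. Over the 1740 probes above 0 in all samples, the median absolute log2 difference between samples 1 and 2 was 0.233 in pete2 and 0.212 in WT. A drop in sample 2 at least as large as that of PSB27 was seen for 47 probes in pete2 and for 8 in WT, PSB27 included. Among these probes PSB27 alone had it in both groups. With changes in either direction counted, 2 probes, PSB27 included, changed at least as much as PSB27 in both groups. Without sample 2 of both groups, an alternative chosen after seeing these values, the log2 difference was -0.73 ± 0.303 (SE, adjusted p = 0.164), which also missed the threshold.

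The largest PSB27 differences lay in samples 5 and 6. Deposited values there were 1.25 and 1.28 in pete2, against 3.96 and 3.69 in WT, a log2 difference of -1.59 for the pair. It was -0.65 in samples 3 and 4 and -0.22 in samples 1 and 2. With samples 5 and 6 left out of both groups, the normalized log2 difference was -0.21 (adjusted p = 0.867), and these pete2 samples also had the highest shares of probes at 0, whose part was not tested.

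**Figure D3:**
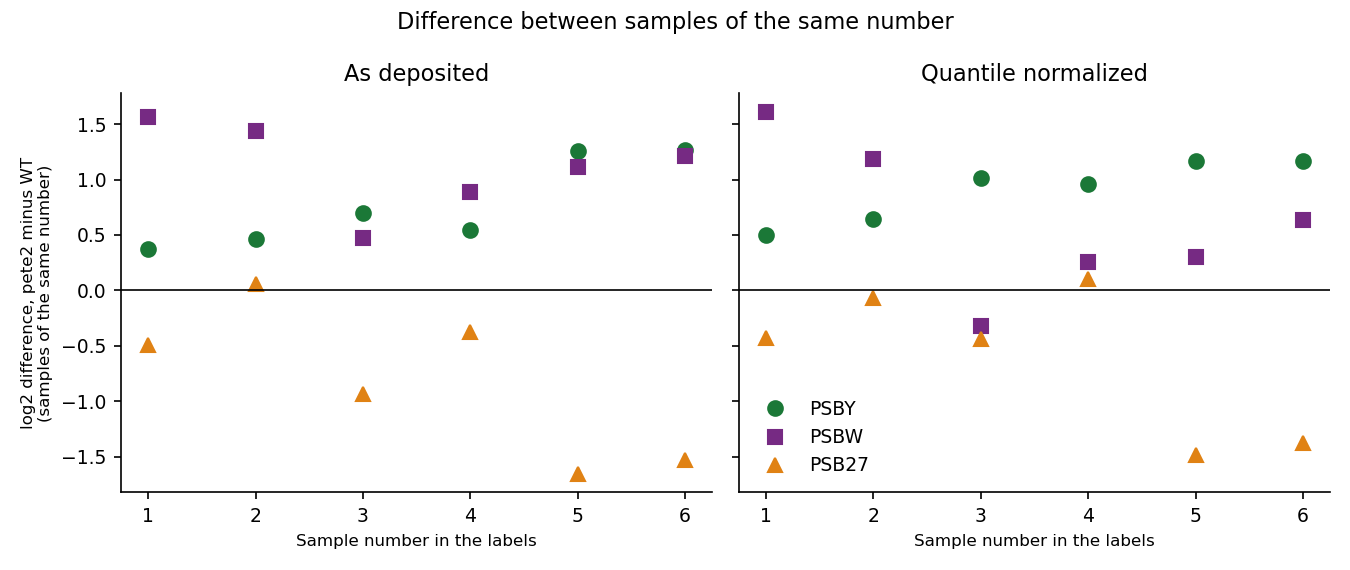
Log2 difference, pete2 minus WT, between samples of the same number (x axis, 1 to 6) as deposited (left) and after quantile normalization (right). Circles are PSBY, squares PSBW and triangles PSB27. PSBY was above 0 at every number, between 0.37 and 1.27 as deposited, while PSB27 was lowest in samples 5 and 6, at -1.66 and -1.53.

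Ratios between the probes of a sample cancel a brightness factor common to all its probes. They do not cancel an added background, and the background correction is not given. The value of such a ratio reflects the probes as well as the transcripts and is not a ratio of transcript levels, so only its difference between groups was read. PSBW over PSB27 had a log2 ratio of 3.8, 5.91, 5.14, 5.04, 5.24 and 5.21 in pete2 samples 1 to 6, against 1.73, 4.53, 3.74, 3.77, 2.47 and 2.46 in WT samples 1 to 6. Pete2 sample 1, low for this group, and WT sample 2, high for its group, overlapped with the other genotype. The means were 5.05 ± 0.689 and 3.12 ± 1.05 (SD, n = 6 each) in pete2 and WT. The difference was 1.94, with p = 0.00433 in a two-sided exact permutation test and 0.013 after Benjamini-Hochberg adjustment over 3 ratios. It was positive between same-numbered samples at 6 of 6 numbers, from 1.26 to 2.78, including sample 2, where PSB27 was low in both groups. The numbers were not taken as pairs, and many consecutive samples lay close, so these are not 6 independent comparisons.

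PSBY over PSB27 had a log2 ratio of 0.27, 2.37, 1.65, 1.44, 2.43 and 2.29 in pete2 samples 1 to 6, against -0.60, 1.96, 0.02, 0.51, -0.49 and -0.51 in WT samples 1 to 6. The groups overlapped more widely here. Pete2 samples 1, 3 and 4 lay below WT sample 2, and pete2 sample 1 also lay below WT sample 4. The difference of 1.59 had an exact permutation p of 0.0195 (Benjamini-Hochberg 0.0292). It was positive at 6 of 6 numbers, from 0.41 to 2.92, which again are not independent. This call was lost, with a Benjamini-Hochberg value of 0.0584, on leaving out pete2 sample 2, 5 or 6 or WT sample 1, 5 or 6 singly, with differences between 1.44 and 1.48.

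With samples 5 and 6 left out, neither ratio passed. PSBW over PSB27 then differed by 1.53 (exact permutation p = 0.0571, Benjamini-Hochberg 0.171) and PSBY over PSB27 by 0.96 (exact permutation p = 0.257). On normalized intensities the differences were 1.23 and 1.53, with Benjamini-Hochberg values of 0.0909 and 0.0714 by the exact permutation test. With pairs averaged the exact permutation p was 0.10 for both, the smallest that 3 against 3 can give.

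The change of PSBY relative to PSBW did not pass the test. The log2 ratio of PSBY over PSBW was -3.31 ± 0.35 in pete2 and -2.97 ± 0.492 in WT (SD, n = 6 each), a difference of -0.35 (exact permutation p = 0.18). On normalized intensities the sign turned, to 0.30 (exact permutation p = 0.335). Same-numbered samples differed in both directions, from -1.19 in sample 1 to 0.23 in sample 3, and 3 of 6 were above 0. Without WT sample 3, which had the lowest ratio of its group (-3.72), the difference was -0.50, with a Benjamini-Hochberg value of 0.0476 by the exact permutation test.

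**Figure D4:**
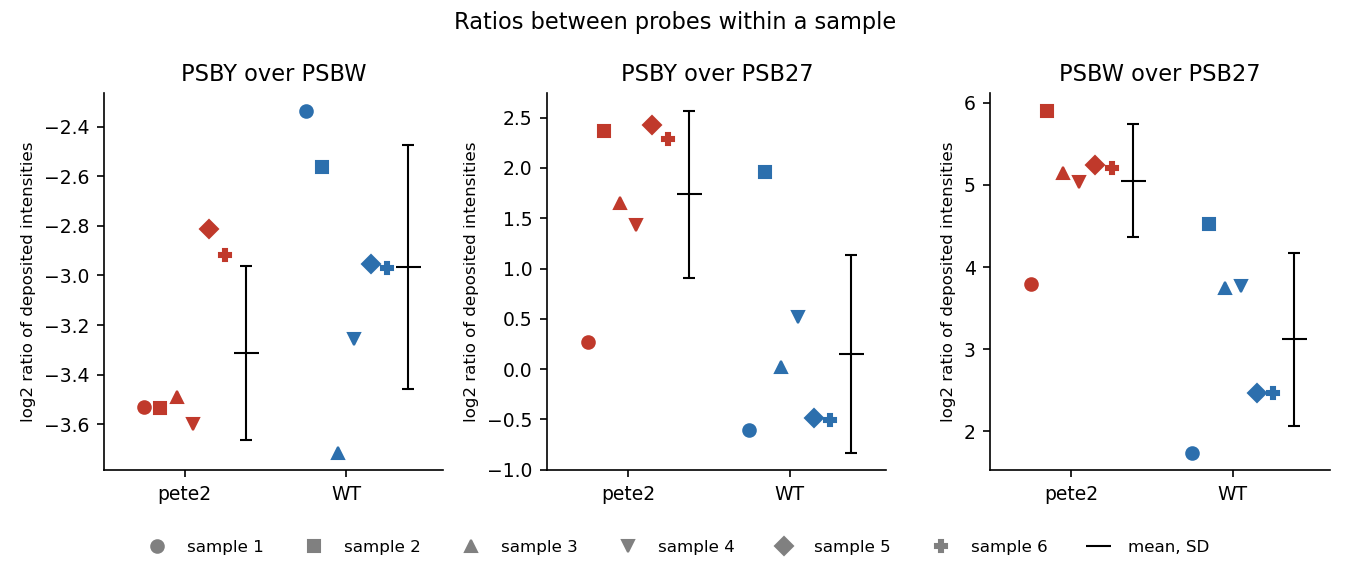
Log2 ratio of the deposited intensities of PSBY over PSBW, PSBY over PSB27 and PSBW over PSB27 in 6 pete2 samples, left, and 6 WT samples, right. Symbols give the sample number, and the bar gives the mean and SD. Both ratios over PSB27 were higher on average in pete2, by 1.59 and 1.94, and the groups overlapped in all 3 panels. The vertical axes do not start at 0.

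Ranks within a sample also need no scaling. PSBY was the 65th to 118th brightest of 3439 probes in pete2 samples and the 120th to 163rd in WT samples, with no overlap. Quantile normalized values follow these ranks, so this is the separation already described for them and not a second result. Of all tested probes, 3.31% showed such a separation upward in the normalized values. As percentiles this was 97.4 ± 0.616 in pete2 and 95.7 ± 0.515 in WT (SD, n = 6 each), a difference of 1.65 percentile points. The exact permutation test gave 0.00216, the smallest p that 6 against 6 can give, and 0.00649 after Benjamini-Hochberg adjustment over the 3 ranks. That test takes the 12 samples as independent, although consecutive samples lay close. The adjusted value missed the threshold with the sample number as a block (0.0938), with pairs averaged (0.15) and with samples 5 and 6 left out (0.0857), although the unadjusted exact permutation p was each time the smallest that the design can give (0.03125, 0.10 and 0.0286). PSBW was at percentile 99.6 in pete2 and 99.3 in WT on average, with exact permutation p = 0.0455, or 0.0682 after that adjustment. That value passed on leaving out WT sample 3 (0.0195) or WT sample 5 (0.0455). PSB27 was at percentile 92.4 ± 4.90 in pete2 and 94.0 ± 5.40 in WT (SD, n = 6 each, exact permutation p = 0.481). Its rank fell to 601st in pete2 sample 2 and 574th in WT sample 2, against 136th to 218th in the other pete2 samples and 90th to 206th in the other WT samples. The mean percentile difference of PSB27, -1.62, turned on these samples. It was 0.351 without pete2 sample 2 (exact permutation p = 0.944), -3.75 without WT sample 2 (exact permutation p = 0.0346, Benjamini-Hochberg 0.0519) and -1.79 without both (exact permutation p = 0.0635).

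**Figure D5:**
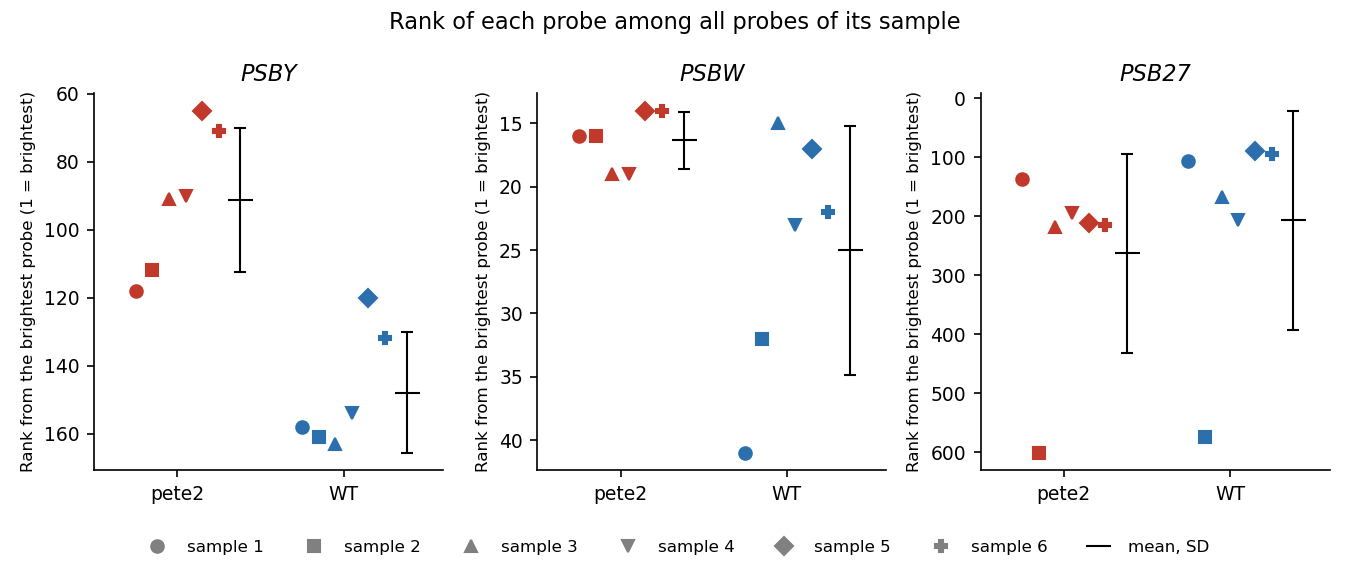
Rank of the PSBY, PSBW and PSB27 probes among the 3439 probes of each sample (y axis, rank 1 is the brightest and lies at the top), with 6 pete2 samples left of 6 WT samples and the mean and SD beside them. PSBY ranks did not overlap, at 65 to 118 in pete2 and 120 to 163 in WT, and PSB27 was at 601 and 574 in sample 2 of pete2 and WT.

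Within groups the SD of normalized log2 values was 0.451 in pete2 and 0.214 in WT for PSBY, 0.207 in pete2 and 0.648 in WT for PSBW, and 0.767 in pete2 and 1.13 in WT for PSB27. PSBW thus varied less than PSBY among pete2 samples and more among WT samples. Pooled over the groups the SD was 0.353 for PSBY, 0.481 for PSBW and 0.965 for PSB27, against a median of 1.04 over all tested probes. Without sample 2 of both groups, left out after its values were seen, the pooled SD of PSB27 was 0.508, close to the 0.492 of PSBW. After each group's mean was taken off, the 12 samples gave a Pearson r of 0.31 between PSBY and PSBW, 0.30 between PSBY and PSB27 and 0.21 between PSBW and PSB27. The points share arrays and close pairs of samples, so these are descriptions only.

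By the same measure, the 332 other single-gene probes above 0 in all samples were ranked by likeness to each gene. AT1G32190 (r = 0.99) and AT3G09080 (r = 0.94) were most like PSBY. RAP74 (AT4G12610), which encodes a subunit of the general transcription factor TFIIF, and AT2G27290 were most like PSBW, with r of 0.88 and 0.80. For PSB27 the closest were AT4G27250 and AT1G21350, with r of only 0.67 and 0.64. The likeness is within groups only and leaves out the difference between them. In the fit that takes the 12 samples as independent, AT1G32190 had a log2 difference of -1.14 (adjusted p = 0.0817, limma). There AT2G27290 fell by 1.11 (adjusted p = 0.0057, limma) and AT4G27250 rose by 1.88 (adjusted p = 0.0183, limma).

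Few other photosynthesis genes were measured by a probe of their own. Beside PSBY, PSBW and PSB27, 84 nuclear genes were listed for the photosystems, their antenna, assembly and electron transport. Of these 4 were measured, and 8 more shared a probe with other genes and were given no value. Of the 4, 1 rose and 0 fell (limma, adjusted p), where 4.91% of all tested probes were called higher and 6.29% lower. An unadjusted p under 0.05 was seen for 3 of the 4 and for 26.0% of all tested probes. The log2 difference was positive for 3 of the 4, with a median of 1.13, against -0.01 over all 3321 probes tested. The gene that rose was PSAN, a lumenal photosystem I subunit near the plastocyanin docking site, with a log2 difference of 1.33. Its adjusted p was 0.00034 with the 12 samples as independent and 0.000667 with pairs as a random block (limma). With pairs averaged it was 0.132 (limma), so PSAN was not called there.

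In photosystem II assembly and repair 2 of the 30 listed genes other than PSB27 were measured, its homologue LPA19 and the rubredoxin gene AT1G54500. Of these 0 passed the test, where 11.2% of all probes did, and both had an unadjusted p under 0.05 (limma), as did 26.0% of all probes. LPA19 (AT1G05385) encodes a lumenal homologue of PSB27 that assists the maturation of a reaction centre protein in Arabidopsis. Its deposited intensity was between 0.0406 and 0.0978 in pete2, against 0.203 to 0.260 in WT, with no overlap, where 9.06% of all tested probes lay lower in every pete2 sample as deposited. LPA19 had a normalized log2 difference of -1.16 ± 0.449 (SE, adjusted p = 0.123, limma). It fell by 1.81 on the intensities as deposited (adjusted p = 0.00382, limma), where 11.6% of all probes were called lower. The median difference over all tested probes was itself -0.63 on those intensities.

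AT1G54500, the gene of a thylakoid rubredoxin needed for photosystem II to accumulate, differed by 0.93 ± 0.302 on the log2 scale (SE, adjusted p = 0.0661, limma). The antenna gene LHB1B2 differed by 1.5 ± 0.955 on that scale (SE, adjusted p = 0.342, limma). Of 16 marker genes for roots, flowers, senescence, guard cells, vascular tissue and dividing cells 0 had a probe of their own, so the make-up of the tissue was not examined.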

How the data were processed

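For each of 12 samples, 6 of pete2 and 6 of WT, the deposited table gives every probe a linear intensity. The sources used here do not give the scanner, background correction or scaling behind the deposited intensity, and the number of arrays limits the precision. Gene names are those of the platform's probe table, and symbols come from RefSeq (TAIR10.1), which held the gene of 690 of the 692 probes with a single gene.

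Intensities were quantile normalized. Values at or below the 1st percentile of positive normalized values (0.0056), and those deposited as 0, were set to that floor before log2. Leaving out 118 probes listed at 0 throughout, 3321 were tested. The main test was limma (version 3.58.1, R 4.3.3; lmFit, eBayes with an intensity trend) with Benjamini-Hochberg adjustment over all tested probes and a threshold of 0.05. Ratios and ranks used deposited values and two-sided exact permutation tests (SciPy 1.17.1). Alternatives were 4 scalings in all, another floor and filter, no trend, the sample number as a block, close pairs of samples averaged or as a random block (correlation 0.525), and samples left out.

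The genes named are the 3 members, the measured genes of 5 photosynthesis lists, and for each member the 2 single-gene probes most correlated with it within groups. The members and lists were chosen with earlier results of these data known. Whether numbers pair samples across groups was checked by the correlation of same-numbered deviations from the group mean. It lay between 0.02 and 0.28, against a median of -0.03 between samples of different numbers. For 4 of 6 pete2 samples it was highest with the WT sample of their own number. As it was over 0.1 for only 4 of 6 numbers, the numbers were not taken as pairs in the main test. With the sample number as a block, the SE of the log2 difference was 0.244 for PSB27, against 0.506 without the block. It was 0.134 against 0.203 for PSBY and 0.259 against 0.278 for PSBW. What samples of the same number share was not tested.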

Additional observations from a re-analysis of the deposited data

Results flagged for a closer look

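PSB27 had a sample far from the others of its group. For the percentile rank, pete2 sample 2 lay 0.824 of the range of the 6 pete2 samples away from its closest neighbour, and WT sample 2 lay 0.76 of the WT range away. For the normalized log2 intensity, pete2 sample 2 lay 0.657 of the range away. All 3 values exceed Dixon's 95% critical value for 6 samples, and the value for the normalized log2 intensity in WT, 0.518, did not. By chance 1 in 20 sets of samples would exceed it, and 3 of the 18 sets examined did, all of them for PSB27 and so not independent of each other. No explanation was tested.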

How the results depend on the processing

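The log2 difference of PSBY was positive in all 24 alternatives and lost its call in 2, with median centring (1.47, adjusted p = 0.0683) and with pairs averaged (0.91, adjusted p = 0.286). PSBW was positive in all 24 and gained a call in 2, without scaling (1.12) and with median centring (1.82). PSB27 was negative and not called in all 24, with values from -1.02 to -0.12. Leaving out each sample in turn gave 0.78 to 1.01 for PSBY (adjusted p up to 0.0305), 0.42 to 0.76 for PSBW and -1.02 to -0.33 for PSB27. Each such fit keeps the other sample of a close pair, so these ranges do not show what rests on a pair. Without pete2 samples 5 and 6 PSBY had 0.62, below its range. The 372 probes called over 12 samples (163 higher, 209 lower) became 168 with pairs as a random block, 11 with pairs averaged and 287 to 423 with 1 sample left out. Without scaling 445 were called, 60 higher and 385 lower. With the replicate number as a block (replicate block) 324 probes were called and PSBY, PSBW and PSB27 had adjusted p of 0.007, 0.183 and 0.159. The block left the 1.65 points of the PSBY rank with a Benjamini-Hochberg value of 0.0938, and changed no other call of these genes, ratios and ranks.

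The rank difference of PSBY also lost its call with pairs averaged (1.65, Benjamini-Hochberg 0.15) and without samples 5 and 6 of both groups (1.64, Benjamini-Hochberg 0.0857). In these 3 designs the unadjusted p of the PSBY rank was the smallest possible, so this loss does not show a weaker separation. It does not speak for the call either. With pairs averaged, 3 against 3 cannot reach the threshold, so whether the call holds across pairs was not decided. The exact permutation p of 0.00216 takes the 12 samples as independent, although consecutive samples lay close. On normalized intensities the differences of PSBY over PSBW, PSBY over PSB27 and PSBW over PSB27 were 0.30, 1.53 and 1.23, and with samples 5 and 6 left out those of the ratios over PSB27 were 0.96 and 1.53. With pairs averaged the calls of PSBY over PSB27 (1.59) and PSBW over PSB27 (1.94) were lost, since 3 against 3 cannot reach the threshold. Leaving out each sample gave -0.50 to -0.22, 1.44 to 1.95 and 1.66 to 2.22 for the 3 ratios, and 1.5 to 1.82, 0.159 to 0.310 and -3.75 to 0.351 percentile points for the ranks of PSBY, PSBW and PSB27. The cause of these changes was not tested. Signal over background is unknown for these arrays.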
